A study of Mus musculus with 2 samples.

Results

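The barcodes described here are those in which no productive heavy-chain transcript was assembled. A barcode is the droplet label that stands for a cell, a contig is a receptor transcript assembled from its reads, and a contig is productive if it can be read in frame from the start of V to J without a stop. Members were all barcodes with no contig of chain IGH marked productive. There were 524 of them among 6993 barcodes. They were set against the 6241 barcodes with exactly 1 productive heavy chain, called single-heavy barcodes below.

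A B cell carries an antibody made of paired heavy and light chains, and each chain gene is assembled by joining V, (D) and J segments. Heavy-chain joining comes first in development, and a B cell that leaves the bone marrow is known to need a heavy chain that can be translated. Light chains are either kappa (IGK) or lambda (IGL), and the constant gene joined to the heavy chain (IGHM, IGHD, IGHA, IGHG and so on) gives the antibody class. A joint that is out of frame or holds a stop codon gives a transcript that cannot be translated into a full chain, and unrearranged J and constant genes can also be transcribed.

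The study asked how B cell receptors of the Peyer's patches, lymphoid follicles of the small intestine, compare between mice with and without MHC class II on the gut epithelium. Both groups were adult females that carried H2-Ab1 fl/fl, a form of the MHC class II beta-chain gene that Cre recombinase can delete. The Cre+ library came from mice that also carried Villin:Cre+, in which the Villin promoter, active in intestinal epithelium, drives Cre. The mice of the Cre- library were H2-Ab1 fl/fl; Villin:Cre-. Each library pooled CD45+ cells, enriched with magnetic beads, from 4 mice, and each genotype had 1 library. No difference between genotypes therefore has a replicate check, and the genotype, the library and the pool of mice cannot be told apart. The series' design text gives the Cre- genotype for both groups, against the sample labels used here, and H2-Ab1 was not measured. Intervals in parentheses are at the 95% level and describe counting error alone.

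Members made up 309 of 3748 barcodes in the Cre+ library, a share of 8.24% (7.38 to 9.17). They were 215 of 3245 Cre- barcodes, 6.63% (5.79 to 7.54). The share was 1.62 percentage points higher in the Cre+ library, with an interval of 0.365 to 2.86. Barcodes with no IGH contig of any kind were 3.01% (2.49 to 3.61) and 2.80% (2.26 to 3.43) of the 2 libraries, and these intervals overlap. The members held 812 and 565 contigs and 3.83% and 1.84% of all unique molecular identifiers (UMIs, tags that count captured transcripts). Cre+ members had a median of 23 UMIs over all contigs, with quartiles at 11 and 37, and Cre- members 21, with quartiles at 9.5 and 38.5. The median single-heavy barcode had 46 in each library. The libraries shared 10 barcode sequences, and 0 of those barcodes were members.

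The label names a lack of heavy chain, not a cell type, and no gene expression was used, so B cell identity could be checked only on the receptor contigs themselves. A productive light chain, which marks B cells, was found in 286 of the 309 Cre+ members (92.6%) and in 185 of the 215 Cre- members (86.0%). Among single-heavy barcodes the shares were 99.0% and 98.0%. The difference between libraries in the members' share was 6.51 percentage points (0.927 to 12.5). T cell receptor contigs with a V gene were found in 0 members and in 0 single-heavy barcodes. Whether these libraries could recover a rearranged T cell receptor is not known, so these counts set no limit on T cells among the members. A contig is called nonproductive here if it was not marked productive, so partial contigs without a verdict are included. Members with a light chain but no IGH contig numbered 106 and 75, members with a light chain and a nonproductive IGH contig 180 and 110. The remaining 23 Cre+ and 30 Cre- members had no productive light chain, and 16 and 14 of these held an IGH contig.

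Sequences are shown first for some of the members that carried a well-covered heavy chain. In these barcodes a heavy-chain transcript was present but not marked productive. Cre+ members also held well-covered contigs with other constant genes, whose sequences are not shown. They included IGHG2B at 105 UMIs, IGHA at 38 and a full-length IGHV1-69, IGHJ2 and IGHM contig at 33. In the Cre+ library 6 members carried an IGHG1 contig, the constant gene of IgG1, with a CDR3 (the joint region that contacts antigen) and without the full-length mark. These contigs had 12, 13, 17, 20, 41 and 58 UMIs, and 4 of them used IGHV1-9 with IGHJ2. The first line below is the most common CDR3 of the productive IGHV1-9 lineage in the same library (a lineage being heavy chains with the same V, J and CDR3 length and 85% or more CDR3 identity), carried by 21 barcodes. After it comes a variant of it carried by 11 barcodes. The next was found in 3 members and the last in 1. Capitals mark bases that differ from the first line.
productive lineage, most common: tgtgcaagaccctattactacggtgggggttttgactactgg
productive lineage, variant: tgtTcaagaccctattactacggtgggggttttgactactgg
3 members: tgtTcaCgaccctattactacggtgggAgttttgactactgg
1 member: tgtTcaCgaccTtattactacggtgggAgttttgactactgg

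Counted from 1 at the first base of the CDR3, the 3 members carried G4T, A7C and G28A, and the other member also C12T. The variant in 11 productive barcodes carried G4T alone. The 4 contigs were 607 to 612 bases long, against 460 to 611 for the productive lineage's contigs. That lineage held 29 single-heavy barcodes, of which 27 were IgG1, with a median of 15 heavy-chain UMIs. So the 4 members' 12, 17, 20 and 41 UMIs lie inside the range of productive contigs of the same lineage (2 to 45). IGHV1-9 lies on chromosome 12 at 114583569 to 114583862 (GRCm38.p6, RefSeq), and IGHG1 at 113326541 to 113330523.

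The same 4 members shared a light chain, IGKV1-110 joined to IGKJ4, that also differed from the light chain of the productive lineage. The lineage's light chain is given first and the members' second, with differing bases in capitals.
productive lineage, light chain: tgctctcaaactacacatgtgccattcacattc
4 members, light chain: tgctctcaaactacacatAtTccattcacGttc

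It differed from the lineage's light chain by G19A, G21T and A30G. These are written from the lineage to the members and do not give the order of change. Its UMIs in the 4 members were 63, 76, 102 and 125. This light chain occurred in 6 barcodes of the Cre+ library and in 0 single-heavy barcodes of the Cre- library. Another member held it at 7 UMIs with no IGH contig. The remaining barcode was a single-heavy one with the light chain at 95 UMIs. It held the same kind of IGHV1-9, IGHJ2 and IGHG1 contig at 19 UMIs, again without the full-length mark, beside a different productive heavy chain. The 4 members share their heavy and light joints, so they count as 1 branch of a lineage, not as independent cases.

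The other 2 IGHG1 members used IGHV1-12 (chromosome 12, 114615850 to 114616143) with IGHJ3. Here the first line is the CDR3 of 2 productive IgG1 barcodes of the Cre+ library and the next 2 lines are the members at 58 and 13 UMIs.
productive IgG1: tgtgcaagagaggggtttgcttactgg
member at 58 UMIs: tgtAcaagagaggggtttgTttactgg
member at 13 UMIs: tgtgcaagagagggCtttgcttactgg

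The changes were G4A and C20T in one and G15C in the other. Both members and both productive barcodes carried IGKV5-43 with IGKJ5, and the members' light chains had 122 and 50 UMIs. The first differed from the productive IgG1 barcodes' light chain by G6A and C11T and the second by G6A, C11T and C18T. The productive IGHV1-12 and IGHJ3 family held 4 single-heavy barcodes, of which 2 were IgG1. The others were not IgG1 and carried IGKV4-57 with IGKJ5. Of barcodes with a constant gene, productive IgG1 made up 55 of 3276 Cre+ single-heavy barcodes (1.68%, 1.27 to 2.18) and 22 of 2937 Cre- ones (0.749%, 0.470 to 1.13). Adding the 6 members alone gives 61 of 3282 (1.86%, 1.42 to 2.38) in the Cre+ library. This share could only rise, since members with other constant genes were not added. No Cre- member carried an IGHG1 contig, so nothing was added there.

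In the Cre- library the member with most heavy-chain UMIs carried IGHA, the constant gene of the gut antibody IgA. At 71 UMIs it held IGHV14-3 joined to IGHJ2 and IGHA, full length but not productive, with a light chain of 127 UMIs. The tables give the CDR3 and not the V sequence, so what made this contig nonproductive was not tested. A further case was chosen after the values were seen. An IGHV14-3, IGHJ4 and IGHA contig at 20 UMIs had no CDR3 read, in a member whose IGKV17-127 and IGKJ4 light chain had 157 UMIs. That light chain was in 11 barcodes of the Cre- library, of which 3 were members, and 4 of the others carried a productive IGHV14-3, IGHJ4 and IGHA heavy chain, at 6, 20, 23 and 32 UMIs. It was also in 6 Cre+ barcodes.

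**Figure D1:**
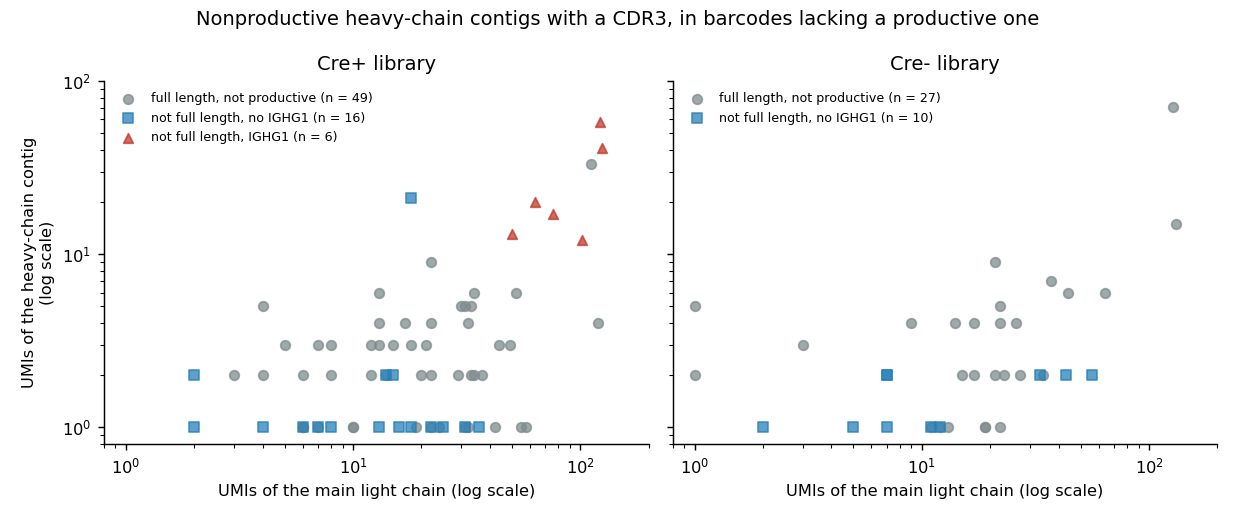
UMIs of the heavy-chain contig (vertical, log scale) against UMIs of the main light chain (horizontal, log scale), for each member's nonproductive heavy-chain contig that has a CDR3 and a light chain in the same barcode. Each point is a contig. The 6 IGHG1 contigs of the Cre+ library (triangles) lie at 12 to 58 heavy-chain UMIs and 50 to 125 light-chain UMIs, and most other contigs without the full-length mark lie at 1 or 2.

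Most members held a heavy-chain remnant of some kind, and they were sorted by the most complete one. In the Cre+ library 22 members (7.12%, 4.52 to 10.6) had a CDR3 in a contig without the full-length mark, and 50 (16.2%, 12.3 to 20.8) a full-length contig that was not productive. A joined V and J without CDR3 was the best contig in 17 (5.50%), a V alone in 6 (1.94%), a J without V in 67 (21.7%, 17.2 to 26.7) and a constant region alone in 34 (11.003%). A further 29 (9.39%) had a heavy constant gene only in a Multi contig, one whose segments were annotated to more than 1 kind of chain. No heavy-chain contig at all was found in 84 (27.2%, 22.3 to 32.5). The Cre- library gave 11 (5.12%), 28 (13.0%, 8.83 to 18.3), 14 (6.51%), 12 (5.58%), 43 (20%, 14.9 to 25.98), 16 (7.44%), 29 (13.5%) and 62 (28.8%, 22.9 to 35.4) in the same order. Of the 8 classes, V alone was the 1 whose difference between libraries had an interval without 0, at -3.64 percentage points for Cre+ minus Cre- (-7.79 to -0.161).

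**Figure D2:**
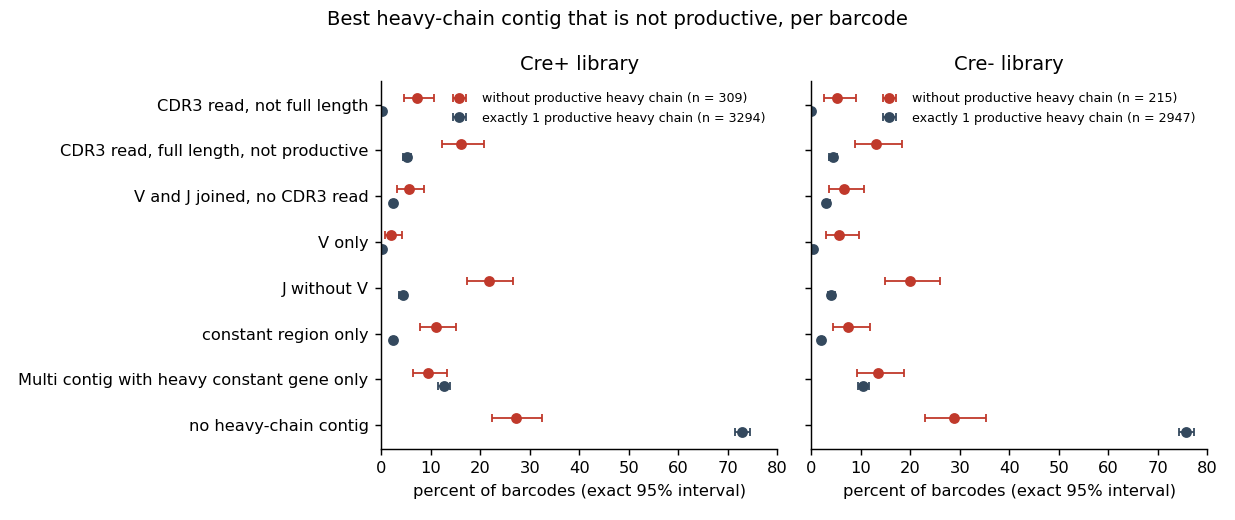
Percent of barcodes (horizontal) whose most complete heavy-chain contig other than a productive one falls in each class, for barcodes lacking a productive heavy chain and for barcodes with exactly 1. Points are shares with exact 95% intervals. Among members the commonest remnant was a J without V, at 21.7% and 20%. The commonest class in both kinds of barcode was no such contig, at 27.2% and 28.8% of members. It was 73.0% and 75.8% of single-heavy barcodes.

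A nonproductive IGH contig was found in 63.4% of Cre+ members (57.8 to 68.8) against 14.4% of single-heavy barcodes (13.2 to 15.7). In the Cre- library the shares were 57.7% (50.8 to 64.4) and 13.6% (12.4 to 14.9). They include partial contigs marked neither way, so they are not shares of failed joints. Full-length contigs with a CDR3 were 51 of the 208 Cre+ and 28 of the 129 Cre- members' contigs. The deposited tables treat the 2 kinds of barcode differently here. Of the members' 208 and 129 nonproductive IGH contigs, 73 and 49 had 1 UMI, whereas 0 of the 478 and 404 such contigs in single-heavy barcodes did, although productive IGH contigs at 1 UMI were kept in 106 and 82 of those barcodes. Contigs with 2 or more UMIs are the like comparison. Counted from those alone, 41.7% of Cre+ members (36.2 to 47.5) and 35.8% of Cre- members (29.4 to 42.6) held a nonproductive IGH contig, against the same 14.4% and 13.6%. Weighting the single-heavy barcodes to the members' light-chain UMIs gave 13.5% and 11.7%.

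Stop codons were found in part of the full-length nonproductive contigs. Of 51 in Cre+ members, 20 (39.2%, 25.8 to 53.9) had a stop codon in the frame of the CDR3 as annotated, and of 28 in Cre- members 9 (32.1%, 15.9 to 52.4). The same kind of contig in single-heavy barcodes had one in 52.4% of 170 and 48.8% of 129. All these CDR3s were whole numbers of codons, as the tables give them. Their frame was not checked against the V gene. The Cre- example below holds a later tgtgca in another frame, so its first stop codon may lie outside the joint. The most covered example of each library follows, with stop codons in capitals.
Cre+, IGHV1-80, IGHJ1, IGHM at 5 UMIs: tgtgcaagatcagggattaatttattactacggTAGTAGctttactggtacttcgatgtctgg
Cre-, IGHV1-74, IGHJ3, IGHM at 5 UMIs: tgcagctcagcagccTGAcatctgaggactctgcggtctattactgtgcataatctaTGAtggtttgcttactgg

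The first bases of the CDR3 also differed from those of productive chains. Productive CDR3s most often started with tgtgcaag, in 66.5% of 3294 Cre+ and 70.3% of 2947 Cre- single-heavy barcodes. The productive mark requires the frame of V, so a start shifted out of that frame is excluded by the mark itself. The start tgcaag, which is contained in that string after its first bases tg, started 0 productive CDR3s. Counts of 0 leave room for at most 0.0911% (Cre+) and 0.102% (Cre-) with the start tgcaag. Among members' full-length nonproductive contigs it started 12 of 51 CDR3s (23.5%, 12.8 to 37.5) and 5 of 28 (17.9%, 6.06 to 36.9). In single-heavy barcodes' nonproductive contigs it started 42 of 170 (24.7%) and 30 of 129 (23.3%), so for this start the intervals overlapped. The tgtgcaag start differed in the Cre+ library, at 29.4% (17.5 to 43.8) of members' contigs against 8.82% (5.02 to 14.1). In the Cre- library it was 28.6% (13.2 to 48.7) against 11.6% (6.66 to 18.5), with overlapping intervals. Members' contigs here include ones at 1 UMI, which those of single-heavy barcodes do not. The first codon was tgc in 51.0% and 53.6% of the members' contigs against 2.52% and 2.41% of productive chains. In single-heavy barcodes' nonproductive contigs it was tgc in 65.9% and 63.6%. The most covered examples are given with the shifted start in capitals.
Cre+, IGHV1-26, IGHJ2, IGHM at 6 UMIs: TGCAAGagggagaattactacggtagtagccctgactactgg
Cre-, IGHV1-63, IGHJ3, IGHM at 9 UMIs: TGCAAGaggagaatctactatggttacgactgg

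Contigs with a CDR3 but without the full-length mark looked different. None of the 22 Cre+ and 11 Cre- contigs had a stop codon in the CDR3, counts of 0 that allow up to 13.6% and 27.3%. The tgtgcaag start was in 63.6% of each. A constant gene was missing in 15 of the 22 and in all 11, and those contigs had 1 or 2 UMIs. The 7 with a constant gene had 12 to 58 UMIs and comprised the 6 IGHG1 contigs above and an IGHV6-3, IGHJ2 and IGHA contig at 21 UMIs. A partner was a productive heavy chain of the same library with the same V, J and CDR3 length and 85% or more identity. Such a partner existed for 8 of the 22 and 1 of the 11, against 1 of 51 and 1 of 28 full-length nonproductive contigs. The 8 included all 6 IGHG1 contigs, several of them from 1 branch of a lineage. These contigs are not independent cases, and the contrast with full-length contigs was not tested. One contig in each library, at 1 UMI, carried the CDR3 of that library's largest lineage (IGHV5-17 with IGHJ4 in Cre+, IGHV4-1 with IGHJ3 in Cre-).

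Among constant genes of the members' nonproductive IGH contigs, IGHM and IGHD, the classes of B cells that have not switched, led in both libraries. IGHM was in 88 of 185 Cre+ contigs with a constant gene (47.6%) and 48 of 102 Cre- contigs (47.1%), IGHD in 69 (37.3%, 30.3 to 44.7) and 44 (43.1%, 33.4 to 53.3). Among productive heavy chains of single-heavy barcodes IGHD made up 30.1% (28.5 to 31.7) in the Cre+ library, an interval that overlaps the members', and 24.6% (23.1 to 26.2) in the Cre- library, one that does not. Without each library's biggest lineage these shares were 30.6% and 28.7%. Nonproductive contigs of single-heavy barcodes had 42.7% and 37.9%. Switched constant genes were found in 26 Cre+ members: IGHA in 13, IGHG2B in 7, IGHG1 in 6, IGHG3 in 1 and IGHE in 1, on 28 contigs. In the Cre- library 10 members had IGHA and none another switched class. IGHJ1, IGHJ2, IGHJ3 and IGHJ4 were in 23, 65, 37 and 40 of 165 Cre+ contigs with a J and in 25, 22, 27 and 26 of 100 Cre- contigs. IGHJ2 thus stood at 39.4% (31.9 to 47.3) in the Cre+ and 22% (14.3 to 31.4) in the Cre- library. It made up 42.1% (37.2 to 47.2) and 36.8% (31.6 to 42.2) of single-heavy barcodes' nonproductive contigs. The Cre- members' interval ended just below theirs, at 31.4 against 31.6, and the Cre+ members' overlapped. Only members' contigs include ones at 1 UMI, so the IGHD and IGHJ2 comparisons with these nonproductive contigs are not like for like. Among productive chains IGHJ2 was 36.3% and 30.4%. The IGHV genes in most members were IGHV1-26 (8), IGHV1-9 (7), IGHV1-82 (6), IGHV1-18 (5) and IGHV1-47 (5), and 3 further genes also had 5. RefSeq lists 3 of the 96 Cre+ and 0 of the 65 Cre- V-bearing contigs' genes as pseudogenes.

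Members had fewer light-chain UMIs than single-heavy barcodes. The median of the main light chain, the productive one with most UMIs, was 18 in members of each library, with intervals of 15 to 21 and 14 to 22. In single-heavy barcodes it was 29 in each library (28 to 30), so the ratio was 1.61. The interquartile range of members was 8 to 30 in the Cre+ and 7 to 33 in the Cre- library, against 18 to 46 and 14 to 46. Up to 5 UMIs were found in 12.2% and 17.8% of members against 3.801% and 9.76%. Reads per UMI were alike, with medians of 89.7 against 91.8 and of 105 against 105. Light-chain UMIs count both transcription and capture, which cannot be told apart here, and the part of depth in the lack of a heavy chain was not tested.

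The share with many light-chain UMIs differed less. More than 100 light-chain UMIs were found in 8 Cre+ members (2.80%) and 3.19% of single-heavy barcodes, and in 5 Cre- members (2.70%) and 3.08%, with overlapping intervals. The 3 highest Cre+ members, with IGKV9-120 at 1911, IGKV4-59 at 1302 and IGKV10-96 at 317 UMIs, had no IGH contig at all. The highest Cre- member had 157. A light chain of 300 or more UMIs was in 3 Cre+ and 0 Cre- members and in 30 and 26 single-heavy barcodes.

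**Figure D3:**
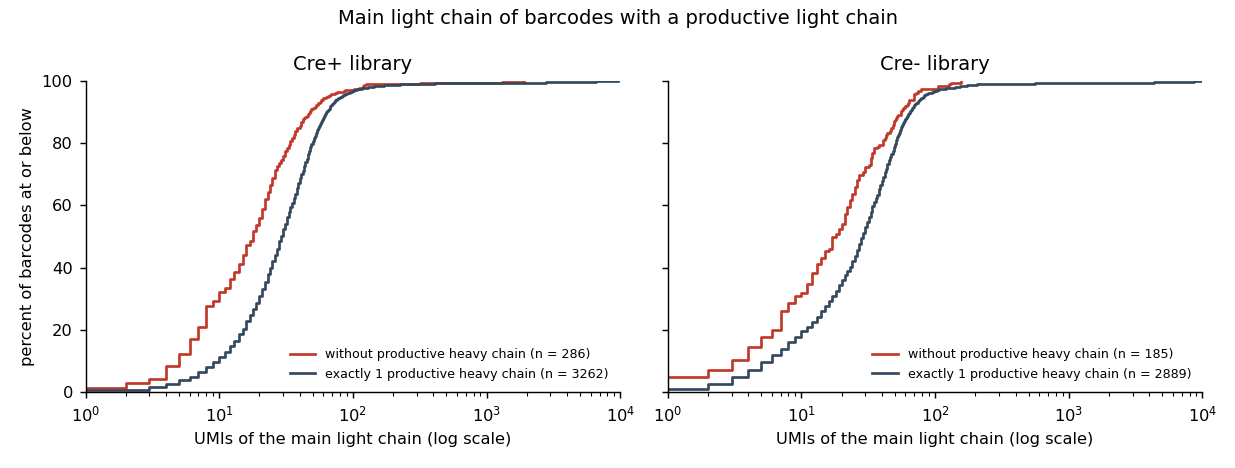
Cumulative percent of barcodes (vertical) at or below each number of main light-chain UMIs (horizontal, log scale), for members and single-heavy barcodes of each library. Medians are 18 and 29 in both libraries, and the curves meet above about 100 UMIs.

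The share of barcodes lacking a productive heavy chain fell with light-chain UMIs. In the Cre+ library it was 22.6% (18.4 to 27.4) at 8 or fewer and 5.40% (4.59 to 6.30) at 17 or more. In the Cre- library the values were 10.3% (7.79 to 13.2) and 4.49% (3.67 to 5.44). The low end of the Cre- library was filled by its largest lineage of 417 single-heavy barcodes, IGHV4-1 with IGKV9-123, and the 386 single-heavy barcodes with its light chain held a median of 5 UMIs of it. Without each library's biggest lineage, the shares at 8 or fewer were 24.8% (19.996 to 30.01) and 28% (21.5 to 35.3), and at 17 or more 5.42% and 4.49%. The lower share at low light-chain UMIs in the Cre- library was thus not seen without that lineage. Of barcodes without a productive light chain, 23 of 55 (41.8%) and 30 of 88 (34.1%) lacked a productive heavy chain too.

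**Figure D4:**
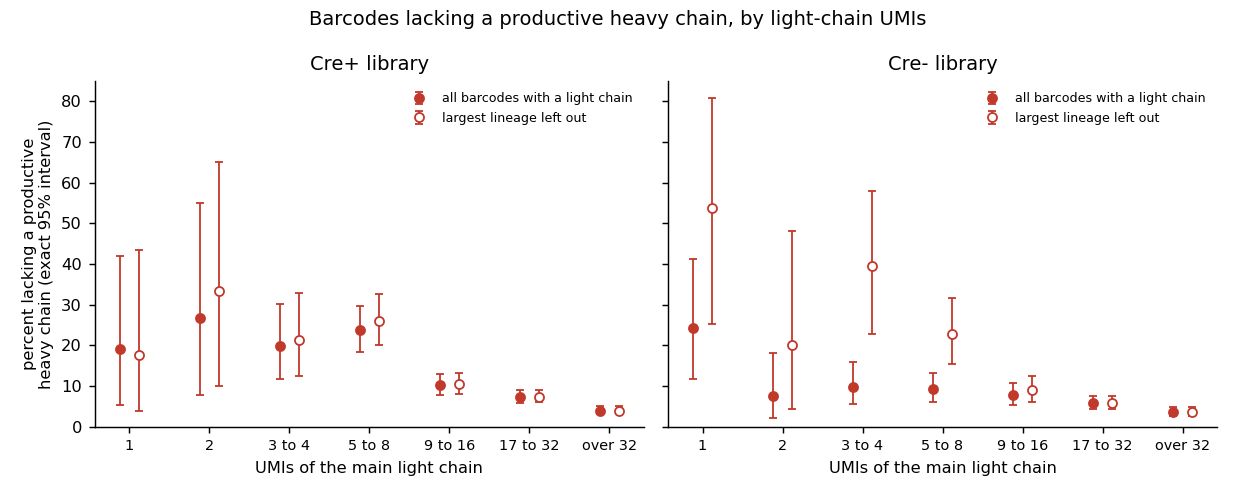
Percent of barcodes lacking a productive heavy chain (vertical, exact 95% interval) by UMIs of the main light chain (horizontal), with all barcodes (filled) and with each library's largest lineage left out (open). Both libraries fall to 3.92% and 3.65% above 32 UMIs, and the Cre- bins of 8 or fewer rise when the lineage is left out.

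Light-chain gene usage of the members resembled that of single-heavy barcodes in most genes. Lambda was the main light chain in 11 of 286 Cre+ members (3.85%, 1.94 to 6.78) and 9 of 185 Cre- members (4.86%, 2.25 to 9.03), against 4.57% and 4.26%. The lambda members used IGLV1 (8 and 5), IGLV2 (1 and 2) and IGLV3 (2 and 2). Among the 275 Cre+ kappa members IGKJ1, IGKJ2, IGKJ4 and IGKJ5 made up 29.1%, 30.2%, 14.9% and 25.8%, against 29.9%, 30.4%, 13.9% and 25.8%. Among the 176 Cre- kappa members they made up 33.5%, 34.7%, 13.1% and 18.8%, against 37.9%, 29.0%, 11.1% and 21.9%. Every interval of these J differences contained 0.

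By a rule of at least 1.5 times and separate intervals, 0 of 17 Cre+ and 1 of 16 Cre- IGKV families (6.25%) were picked, IGKV9 in the Cre- library (8.52% of members, 4.85 to 13.7, against 17.1%). IGKV9-123 of that library's largest lineage belongs to this family. With each light chain counted a single time, IGKV9 was no longer picked, at 7.09% (3.29 to 13.0) of members' light chains against 3.10% (1.99 to 4.57). The interval of that difference contained 0 (-0.0822 to 10.03 percentage points). The family picked under that counting, 1 of 16, was IGKV4, at 11.02% (6.16 to 17.8) against 21.2% (18.3 to 24.2). That counting left 127 of 176 members' kappa chains and 775 of 2766 single-heavy ones. Repeats were thus removed unequally, and the part of this in the IGKV4 pick was not tested. The families with most members were IGKV4 (18.2% of Cre+ members against 14.9%, 9.09% of Cre- members against 11.5%), IGKV1 (13.8% against 14.4%, 16.5% against 11.9%), IGKV6 (12% against 14.9%, 17.6% against 12.7%) and IGKV3 (10.2% against 7.999%, 6.25% against 7.74%). The same rule on single IGKV genes picked 1 of 87 in the Cre+ library, 1.15%, where members were lower, and 2 of 82 in the Cre- library, 2.44%, of which 1 was lower (1.22%) and 1 higher (1.22%). IGKV1-117 was in 2 of 275 Cre+ members (0.727%, 0.0882 to 2.60) against 5.08% of single-heavy barcodes, and in 8 of 176 Cre- members (4.55%) against 3.58%. IGKV9-123, the gene of the largest Cre- lineage, was in 4 of 176 Cre- members (2.27%) against 14.1%. IGKV9-124 (chromosome 6, 67942076 to 67942540) was in 6 Cre- members (3.41%, 1.26 to 7.27) against 0.651%, and in 2 Cre+ members (0.727%) against 1.03%. One of those 6, at 1 UMI, had the CDR3 of the IGKV9-123 lineage, as did 3 of the 18 single-heavy barcodes with IGKV9-124. The other 5 members did not have it. V sequences were not compared, so whether contigs were misassigned between these genes was not tested. With each light chain counted a single time, 0 single genes passed in either library.

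The 5 IGKV genes with most members were IGKV1-135, IGKV10-96, IGKV1-110, IGKV6-15 and IGKV3-4. IGKV1-135 (chromosome 6, 67609745 to 67610508) was in 17 Cre+ members (6.18%, 3.64 to 9.71) against 3.63% of single-heavy barcodes, and in 12 Cre- members (6.82%, 3.57 to 11.6) against 3.43%. IGKV10-96 was in 14 (5.09% against 5.59%) and 13 (7.39% against 4.52%). IGKV1-110 was in 18 (6.55% against 4.56%), of which 4 belong to the IgG1 branch above 1 shares their light chain and 3 hold the light chain of the productive lineage at 6 to 20 UMIs, and in 7 (3.98% against 3.83%). IGKV6-15 was in 10 (3.64% against 3.53%) and 12 (6.82% against 3.29%), and IGKV3-4 in 13 (4.73% against 2.18%) and 3 (1.70% against 1.66%). The intervals of all 5 overlapped those of single-heavy barcodes in both libraries.

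Most members carried a light chain that was also found beside a productive heavy chain. The same V gene, J gene and CDR3 nucleotides were present in a single-heavy barcode of the same library for 232 of 286 Cre+ members (81.1%, 76.1 to 85.5) and 156 of 185 Cre- members (84.3%, 78.3 to 89.2). A single-heavy barcode's light chain was found in another single-heavy barcode in 85.7% and 85.05%. In single-heavy barcodes of the other library, from other mice, the members' light chains were found in 73.1% and 83.8%, so a shared light chain does not tell a shared clone. Members had 208 and 133 distinct main light chains. The largest sets in the Cre- library were IGKV1-135 with IGKJ1 in 6 members, IGKV10-96 with IGKJ1 in 5 and IGKV1-117 with IGKJ2 in 4, and all were also in the Cre+ library. In the Cre+ library 3 light chains were in 5 members each, the IGKV1-110 and IGKJ4 chain of the IgG1 branch, IGKV3-4 with IGKJ2 and IGKV5-48 with IGKJ2.

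The light chain of the Cre- library's largest lineage was rare among members. IGKV9-123 with IGKJ1 and that lineage's CDR3 was in 386 of 2889 single-heavy barcodes with a light chain (13.4%, 12.1 to 14.7) and in 4 of 185 members (2.16%, 0.592 to 5.44), at 1 to 4 UMIs. The matching light chain of the Cre+ library, IGKV4-72 with IGKJ5, was in 57 of 3262 (1.75%, 1.33 to 2.26) and 4 of 286 (1.40%, 0.382 to 3.54), at 1 to 6 UMIs. The difference between the libraries was not tested.

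At least 2 productive light chains were found in 18 Cre+ members (5.83%, 3.49 to 9.05) against 8.96% of single-heavy barcodes, and in 12 Cre- members (5.58%, 2.92 to 9.55) against 7.47%. The differences of -3.13 (-5.68 to 0.233) and -1.88 (-4.73 to 2.19) percentage points had intervals that contained 0. With each barcode's light-chain UMIs thinned to 5, the expected shares were 5.24% in 264 Cre+ members and 6.52% in 159 Cre- members, 2.51 and 0.200 points below single-heavy barcodes at the same depth.

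Multi contigs of any kind were in 114 Cre+ members (36.9%, 31.5 to 42.5) against 32.97% of single-heavy barcodes, a difference of 3.92 percentage points whose interval contained 0 (-1.71 to 9.79). In the Cre- library 88 members had one (40.9%, 34.3 to 47.8) against 26.5%, a difference of 14.4 points (7.59 to 21.5). Counting contigs of 2 or more UMIs, the shares were 25.2% against 16.7% and 30.2% against 13.6%. The Cre+ difference was then 8.52 points, more than before, and its interval no longer contained 0 (3.59 to 13.9). Contigs without a V gene, as an unrearranged or partly assembled transcript gives, were sorted by chain, J gene and constant gene, and kinds found in 20 or more barcodes were compared. This comparison was chosen after values were seen. By the rule of 1.5 times and separate intervals, members were higher in 7 of 20 kinds in the Cre+ library, 35.0%, and in 4 of 14 in the Cre- library, 28.6%. These counts include nonproductive IGH kinds, of which contigs at 1 UMI were kept in members alone, so the direction of those kinds is partly set by the tables. Counted from contigs of 2 or more UMIs, members were higher in 5 of 20, 25%, and in 2 of 14, 14.3%. Members were lower in 1 Cre+ kind, IGLJ2 with IGLC2, at 10.03% against 16.7% (against 16.5% at 2 or more UMIs), and in 0 of the Cre- kinds. Among the heavy-chain kinds at 2 or more UMIs, IGHJ2, IGHJ3 and IGHJ4 with IGHM were higher in Cre+ members, at 2.91% against 0.820%, 3.24% against 0.516% and 3.24% against 0.577%. IGHJ4 with IGHM in Cre- members, at 1.86% (0.509 to 4.69) against 0.543%, was not past the rule at that minimum. A lone IGHD constant region was in 4.53% (2.50 to 7.49) of Cre+ and 4.65% (2.25 to 8.39) of Cre- members against 2.28% and 1.76%, with overlapping intervals. A Multi contig of TRBJ1-1, a T cell receptor beta J segment, and IGHM was in 36 Cre+ members (11.7%, 8.29 to 15.8) against 3.67% of single-heavy barcodes, and in 28 Cre- members (13.0%, 8.83 to 18.3) against 2.31%. At 2 or more UMIs the shares were 8.41% against 1.15% and 9.30% against 0.747%. A Multi contig of TRAJ49, a T cell receptor alpha J segment, and IGHM was in 12 Cre+ (3.88% against 4.07%) and 19 Cre- members (8.84% against 4.04%). At 2 or more UMIs it was in 2.59% against 0.729% and 6.98% against 0.814%. Both kinds thus joined a T cell receptor J name to the IgM constant gene in 1 contig, and whether this is a transcript or an annotation of a short match was not tested.

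Contigs of the T cell receptor chains themselves were in 21 Cre+ members (6.80%, 4.26 to 10.2) against 3.95% of single-heavy barcodes, and in 13 Cre- members (6.05%, 3.26 to 10.1) against 2.48%. At 2 or more UMIs they were in 2.59% against 1.28% and 2.79% against 0.848%. They were J or constant segments alone. TRAJ17 was the commonest, in 9 Cre+ (2.91% against 0.486%) and 8 Cre- members (3.72% against 0.136%), with at most 8 and 9 UMIs. At 2 or more UMIs it was in 1.94% (0.716 to 4.18) of Cre+ members against 0.455% (0.255 to 0.74996), intervals that overlap, and in 2.33% (0.759 to 5.34) of Cre- members against 0.136% (0.0370 to 0.347). TRDC, the delta constant gene, was in 2 Cre+ members with up to 22 UMIs, and TRGC3, a gamma constant gene, in 1 Cre- member at 4.

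**Figure D5:**
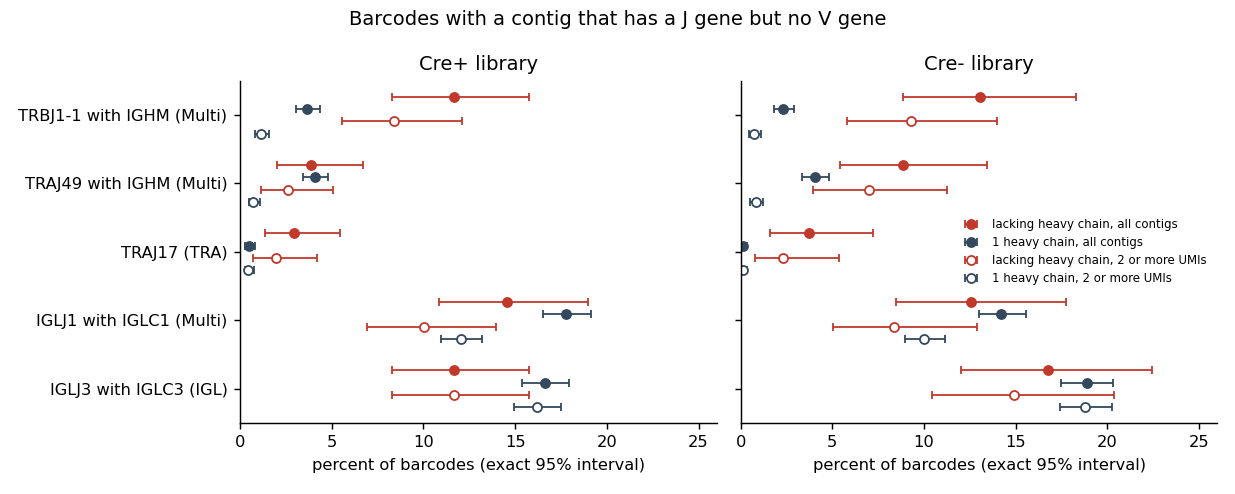
Percent of barcodes (horizontal, exact 95% interval) with a contig that has a J gene and no V gene, for 5 kinds of contig, counting all contigs (filled) or contigs of 2 or more UMIs (open). TRBJ1-1 with IGHM lies at 11.7% and 13.0% of members against 3.67% and 2.31% of single-heavy barcodes. The intervals of the lambda kinds shown overlap between members and single-heavy barcodes. For IGLJ3 with IGLC3 the Cre+ difference was -4.99 percentage points (-8.59 to -0.686). IGLJ2 with IGLC2, lower in Cre+ members, is not shown.

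Members with a productive light chain held T cell receptor contigs in 5.24% (Cre+) and 3.78% (Cre-). Single-heavy barcodes weighted to the members' light-chain UMIs held them in 4.48% and 2.52%. In members without a productive light chain the shares were 26.1% and 20%. Barcodes with neither productive chain are listed only through other contigs, so higher shares of other contigs there are partly set by this choice. TRAJ17 was in 6 of 23 Cre+ members without a light chain (26.1%, 10.2 to 48.4) against 3 of 286 with a light chain (1.05%, 0.217 to 3.03). In the Cre- library it was in 5 of 30 (16.7%, 5.64 to 34.7) against 3 of 185 (1.62%, 0.336 to 4.67). IGHM was carried by a contig in 18 of the 23 (78.3%) and 22 of the 30 (73.3%), against 39.2% and 38.4% of members with a light chain. Such barcodes held a median of 8 and 9 UMIs over all contigs, against 24 and 25 with a light chain. A nonproductive IGK contig was in 6 of 23 and 9 of 30. These barcodes had neither a productive heavy nor a productive light chain, so their cell type was not named.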

How the data were processed

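Single-cell 5' V(D)J libraries of Peyer's patch CD45+ cells were read from 2 contig tables and 2 clonotype tables. Per the submitters' processing notes the reads were processed with Cell Ranger against GRCm38; no version is given in these sources. Per the file headers, each contig has a chain, V, J and constant gene, a CDR3, a productive and a full-length mark, and a count of reads and of UMIs; these counts were deposited by the authors and were not normalised. The clonotype tables give a count of barcodes, per the file headers. Python 3.11.15, pandas 2.3.3 and scipy 1.17.1 were used. The main light chain was the productive IGK or IGL contig with most UMIs. Barcodes with 2 or more productive heavy chains (145 Cre+, 83 Cre-) were left out of the comparison, and no doublet caller was run. With 1 library per genotype and cells that are not replicates, no test was made: shares have exact Clopper-Pearson 95% intervals, differences combine both intervals, medians have order-statistic intervals, and a count of 0 allows 3 counts of the total. Cells of 1 lineage are not independent, so true uncertainty is wider. A gene was picked where shares differed 1.5 times or more with separate intervals; text names all J, lambda and IGKV families, the 5 commonest IGKV genes, picked genes, the 5 commonest IGHV genes of nonproductive contigs and the 3 largest light-chain sets per library. Genes picked with fewer than 5 members, the IGHG1 and IGHV14-3 cases and the kinds of contig without V were named after their values were seen. The members and lists were chosen with earlier results of these data known. The usage comparison was checked on simulated data. Coordinates are from RefSeq's GRCm38.p6 table. A light-chain sequence and the pair of barcodes that share it are not reported here.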

Additional observations from a re-analysis of the deposited data

Results flagged for a closer look

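The share with lambda as main light chain lay on opposite sides of single-heavy barcodes in the 2 libraries, at -0.722 percentage points in the Cre+ library (-2.78 to 2.29) and 0.607 in the Cre- library (-2.13 to 4.84). The difference between the libraries was not tested, and both intervals contain 0.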

How the results depend on the processing

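No paired analysis was possible because each genotype has 1 library. Of 160 values recomputed under alternatives, 127 stayed within the main interval or within 1.5 times a count, 33 moved out of it and 0 changed the sign of a difference whose main interval excluded 0. All alternatives for composition, light-chain UMI bins, Multi and T cell receptor contigs, those for IGKV usage other than counting light chains a single time, and counting only contigs of 2 or more UMIs with members kept, were chosen after seeing the data. For members without any IGH contig, the share with a nonproductive heavy chain is 0 by construction and has no value, nor has the share with the largest lineage's light chain when that lineage is left out. 

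With contigs of 2 or more and 3 or more UMIs, the share lacking a productive heavy chain was 11.03% and 14.5% (Cre+) and 9.15% and 12.4% (Cre-), since 1- and 2-UMI heavy chains are dropped. Without any IGH contig it was 3.01% and 2.80%, and the difference between libraries 0.211 points (-0.607 to 1.02). The excess of members with a nonproductive IGH contig was 25.1 and 14.2 points (Cre+) and 17.5 and 11.3 points (Cre-) at those minimums. It was 15.9 and 12.8 with full-length contigs, and 27.3 and 22.2 with members kept and contigs of 2 or more UMIs counted. The light-chain median differed by -15.5 UMIs in Cre+ members without any IGH contig. 

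The members' lower share with a light chain was -3.36 (Cre+) and -6.45 points (Cre-) at 3 or more UMIs and -1.08 and -2.18 with full-length contigs, which drop barcodes of partial contigs alone. The gap between 8 or fewer and 17 or more light-chain UMIs was 27.8 points at 3 or more UMIs and 11.3 without any IGH contig (Cre+), and 23.7 with the largest lineage left out (Cre-). IGKV genes picked numbered 0 in Cre+ at 2 or more UMIs and without any IGH contig, 0 in each library with light chains counted a single time, and 1 in Cre- with the largest lineage left out and without any IGH contig. The excess with a Multi contig was 12.2 points in Cre+ members without any IGH contig and, with full-length contigs, 0 in Cre-, where 0 of 193 members hold one. The T cell receptor excess was 0 in both libraries with full-length contigs. None of these contigs has a V gene, so that setting removes all of them and is no check of the excess. The 309 and 215 members limit the precision of each share, as its interval shows.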

Other observations

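Nonproductive lambda contigs were in 29.8% of Cre+ members (24.7 to 35.2) against 42.7% of single-heavy barcodes, and in 38.1% of Cre- members (31.6 to 45.0) against 40.9%. A Multi contig of IGLJ1 and IGLC1 was in 14.6% of Cre+ members against 17.8% and in 12.6% of Cre- members against 14.2%. An IGLJ3 and IGLC3 contig was in 11.7% against 16.6% and in 16.7% against 18.9%. Nonproductive kappa contigs were in 10.4% of Cre+ members against 10.3% and in 14.0% of Cre- members against 9.54%.

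In the authors' deposited clonotype tables, clonotypes made of light chains alone numbered 209 of 3558 in the Cre+ library and 134 of 2746 in the Cre- library. By counts these held 286 and 185 barcodes, as many as the members with a light chain, and 47 and 29 of them held 2 or more barcodes. The largest held 6 barcodes in each library. The 23 and 30 members without a light chain belonged to no clonotype.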
